A study of Mus musculus with 6 samples.

Results

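CTLH is a ubiquitin ligase made of many different subunits, and Gid8 is one of its scaffold proteins. The transcripts of 10 CTLH subunit genes were followed in long-term hematopoietic stem cells (LT-HSCs): Gid8, Ranbp9, Ranbp10, Armc8, Rmnd5a, Maea, Gid4, Wdr26, Mkln1 and Ypel5. They were taken by gene symbol from the normalized expression table, which lists 12179 genes, and their reads were taken by gene identifier from the count table, which lists 27179. All 10 were present in both tables. Gid8 was chosen by its own reads in this comparison, where it was higher in Foxm1 HET, so its values are given as a description with no test. The other 9 entered as subunits of the same complex.

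LT-HSCs were sorted as CD150+CD48- LSK cells (lineage-negative, Sca-1+, c-Kit+) from the bone marrow (BM) of C57BL/6 mice, and total RNA was sequenced in 6 libraries. The 3 WT libraries came from mice labelled WT, and the 3 Foxm1 HET libraries came from mice labelled Foxm1 heterozygous, whose titles name a floxed allele (FoxM1flPlus). According to the methods of the study, Foxm1 was deleted by Tie2-Cre, which is active in endothelial and hematopoietic cells, or by Mx1-Cre, which is induced by poly(I:C), and mice were taken in 3 pairs at 8 weeks of age. The methods do not name the driver used for these libraries. In other experiments of the study, controls called WT carried the floxed allele without a named Cre (Foxm1fl/+). The alleles of the WT mice used here are not stated. Foxm1 encodes a forkhead transcription factor of the cell cycle.

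Ubiquitin ligases of this kind hold an E2 enzyme, loaded with ubiquitin, next to a protein that is to be tagged. In CTLH the catalytic pair is formed by the RING proteins Maea and Rmnd5a, which work with the E2 Ube2h. Ranbp9 or its paralog Ranbp10, together with Gid8 and Armc8, forms the scaffold. Gid4 is a receptor that recognises proteins by their N-terminal residues, Wdr26 is an alternative receptor and adaptor, Mkln1 helps CTLH assemble into larger rings, and Ypel5 is a small associated protein. The complex is the mammalian counterpart of the yeast GID ligase. In blood it is known from the maturation of red cells, and Maea is also known from stem cells, where its loss affects surface receptors such as Flt3.

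The 3 stretches of 250 bases shown here lie just upstream of annotated starts of Gid8, the subunit whose reads differed most among the libraries, and of Wdr26, whose reads differed least. They are from RefSeq on GRCm38.p6 and are written 5′ to 3′ along the strand of the gene, with letters in capitals where they match a searched motif on either strand. The first is the Gid8 stretch at the gene start of the count table (chr2:180712296-180712545, plus strand), the second belongs to another Gid8 start 2320 bases upstream (chr2:180709976-180710225, plus strand), and the third is that of Wdr26 (chr1:181211979-181212228, minus strand).
Gid8 at the deposited gene start: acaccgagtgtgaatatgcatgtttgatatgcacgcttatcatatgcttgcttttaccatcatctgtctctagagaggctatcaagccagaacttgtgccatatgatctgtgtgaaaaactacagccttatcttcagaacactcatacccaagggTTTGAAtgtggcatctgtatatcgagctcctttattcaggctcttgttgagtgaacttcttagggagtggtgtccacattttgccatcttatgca
Gid8 at the upstream start: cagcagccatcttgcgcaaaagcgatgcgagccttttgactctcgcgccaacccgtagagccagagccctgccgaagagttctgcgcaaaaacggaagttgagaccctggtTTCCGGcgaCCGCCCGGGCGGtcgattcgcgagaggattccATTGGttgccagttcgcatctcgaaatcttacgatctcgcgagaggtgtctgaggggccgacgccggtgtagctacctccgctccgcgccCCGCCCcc
Wdr26: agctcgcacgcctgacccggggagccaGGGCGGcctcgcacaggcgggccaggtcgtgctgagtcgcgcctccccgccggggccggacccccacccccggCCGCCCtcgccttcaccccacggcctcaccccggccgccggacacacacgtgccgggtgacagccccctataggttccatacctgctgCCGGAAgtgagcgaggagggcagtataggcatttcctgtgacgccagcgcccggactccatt

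Each of 5 motifs was searched on both strands: the forkhead core TAAACA, the cell cycle homology region TTTGAA, the CCAAT box with the letters of its name, the GC box GGGCGG and the ETS core CCGGAA. None of these contains another. The promoter table held 8 of the 10 subunits. TAAACA was found in 1 of the 8, Rmnd5a, and in 11.97% of all 27025 promoters of the same length. TTTGAA was found in Gid8 at its deposited start and in Mkln1, and in 16.3% of all promoters. GC boxes were found in 7 of the 8 and in 33.2% of all, and Gid8 at its deposited start was the one without. CCAAT was found in Rmnd5a and Ypel5 (34.4% of all), and CCGGAA in Ranbp9 and Wdr26 (12.4% of all). These counts take Gid8 at its deposited start, and its upstream stretch holds a CCAAT box, an ETS core and GC boxes, as its capitals show. The deposited Gid8 start had 42.0% G and C and 3 CpG dinucleotides, whereas its upstream start, which faces the start of the neighbouring gene Dido1, had 62.4% and 29. The 8 subunit promoters had a median of 64.4% G and C, against 52.4% over all promoters, and 7 of the 8 lay above that value. These matches are a description of the letters and not of binding by any factor.

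Sequencing depth ranged from 14573002 to 25798509 counted reads per library, and Foxm1 HET replicate 2 was the lowest. In that library 4467 genes had at least 10 reads, against 5963 to 9894 in the other libraries. Foxm1 itself gave 1182, 2615 and 2942 reads from WT replicates 1, 2 and 3 against 659, 5 and 742 from Foxm1 HET, with a log2 fold change of -3.30 (SE 2.33, adjusted p = 0.961 by edgeR). The HSC genes Kit and Hlf had at least 10720 reads in every library, but the sorting marker Slamf1 (CD150) gave 2, 1572 and 0 reads from the WT libraries against 8, 0 and 543 from Foxm1 HET, and Ly6a (Sca-1) had 125, 4 and 2 against 2261, 2 and 1597. The full list of 12 LT-HSC markers summed to 2827 to 7259 CPM (reads scaled to an equal total per library) in WT and 4315 to 5812 in Foxm1 HET. WT replicates 1, 2 and 3 had 3 or fewer reads for 1, 1 and 4 of these markers, and Foxm1 HET for 1, 4 and 0. Neutrophil marker genes (12 genes) summed to 5480 to 15880 CPM in WT and 1598 to 8667 in Foxm1 HET. Of 11 erythroid markers, Gata1 and Hba-a1 were at 0 in every library, but the other listed globin genes had reads. Hba-a2 gave 70, 508 and 1009 reads from the WT libraries against 332, 2 and 0 from Foxm1 HET. Hbb-bs gave 1, 920 and 966 against 145, 507 and 1. Tfrc had at least 364 reads in each, and Slc4a1 gave 956, 6572 and 21700 from WT against 9817, 436 and 1233 from Foxm1 HET. The erythroid list summed to 285 to 1285 CPM in WT and 91.5 to 566 in Foxm1 HET. Of 12 macrophage markers, C1qa, C1qb and Marco were at 0 in every library, whereas Csf1r gave 2717, 312 and 486 reads from WT against 1959, 486 and 110 from Foxm1 HET. The macrophage list summed to 16.8 to 262 CPM in WT and 4.92 to 229 in Foxm1 HET. The part of these cells in the results on CTLH was not tested. In sorted cells measured in bulk, fewer cells of a type and less RNA per cell cannot be told apart.

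Levels are given below as reads, as log2 CPM after TMM scaling of the libraries with 2 prior reads, or as TPM (reads divided by gene length and scaled to an equal total per library). Fold changes compare Foxm1 HET with WT on the log2 scale. They come from one edgeR quasi-likelihood fit of 8195 genes, with p adjusted over all of those genes. In that fit 0.329% of the genes passed an adjusted p of 0.05 in either direction (0.317% higher and 0.0122% lower in Foxm1 HET). WT and Foxm1 HET libraries were fully separated on log2 CPM for 8.68% of the genes, and with Foxm1 HET the higher for 4.12%.

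Gid8, also known as Twa1, joins the scaffold to the other subunits. It lies on chromosome 2 from 180712546 to 180718517 on the plus strand of mm10, with 4 exons. Its transcript was nearly missing from WT, with 6, 1 and 13 reads in replicates 1, 2 and 3. Foxm1 HET had 74 reads in replicate 1, 13317 in replicate 2 and 86 in replicate 3. All Foxm1 HET libraries therefore lay above all WT libraries, but replicates 1 and 3 stood far closer to WT than to replicate 2. Per gene length these reads came to 0.352, 0.0546 and 0.655 TPM in WT and 3.29, 1085 and 4.30 TPM in Foxm1 HET.

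On the log2 CPM scale Gid8 averaged -1.55 ± 1.42 in WT and 4.37 ± 5.74 in Foxm1 HET (SD, n = 3). The fitted log2 fold change was 10.83, and it was 2.46 when Foxm1 HET replicate 2 was left out. Leaving out any other library gave values between 10.29 and 12.03. Its rank within each library showed the same split: Gid8 stood at the 99.1 percentile of TPM among the genes tested in Foxm1 HET replicate 2, at the 19.1 and 22.1 percentiles in replicates 1 and 3, and at the 14.1 to 37.3 percentiles in WT. In WT replicate 3, with 13 reads, Gid8 therefore ranked higher among genes than in Foxm1 HET replicates 1 and 3. Other genes share 5.84% of the 50-base stretches of its transcript, among them Gm5206, which has no row in the count table.

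**Figure D1:**
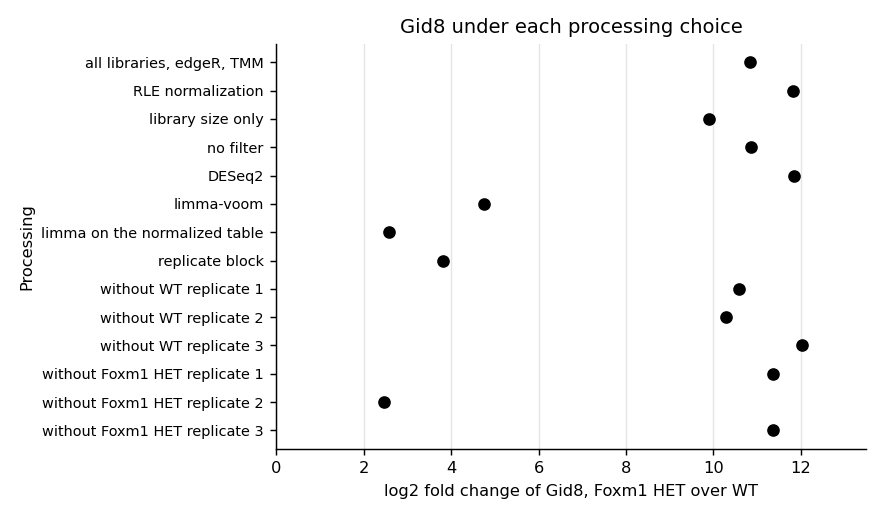
Log2 fold change of Gid8 in Foxm1 HET over WT (horizontal axis) under each way of processing the data (vertical axis), as 1 point each with no error drawn. The value is 10.83 in the fit of all libraries and 2.46 without Foxm1 HET replicate 2, and it is also below 5 with limma-voom, with the normalized table and with the replicate number as a block.

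In the deposited normalized log2 values the separation of Gid8 was lost. WT values were 0.829, 0.716 and 2.23, and Foxm1 HET values were 0.887, 9.57 and 1.07. WT replicate 3 lay above Foxm1 HET replicates 1 and 3, and the means were 1.26 ± 0.845 and 3.84 ± 4.96 (SD, n = 3). There 9.64% of all listed genes were fully separated between genotypes, and Gid8 was not among them.

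Among the other 9 subunits none passed an adjusted p of 0.05 by edgeR, none had an unadjusted p under 0.05, and none had genotypes that did not overlap on log2 CPM, where the shares over all genes were 0.329% and 8.68%. Adjusted p ran from 0.959 to 0.998. The share of all genes with an unadjusted p under 0.05 was 6.03%. DESeq2, which gave a p for 6347 of the 8195 genes and called 2.96% of those, called none of the subunits it gave a p. In DESeq2 1 subunit, Rmnd5a, had an unadjusted p under 0.05 (adjusted p = 0.369), as had 13.1% of the genes, and Ranbp9 received no p. Fitted fold changes were positive for 3 subunits and negative for 6, with a median of -0.48 against -0.26 over all genes tested. Their standard errors, from 1.39 to 2.66, were larger than the fold change itself for 8 of the 9, all except Rmnd5a.

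**Figure D2:**
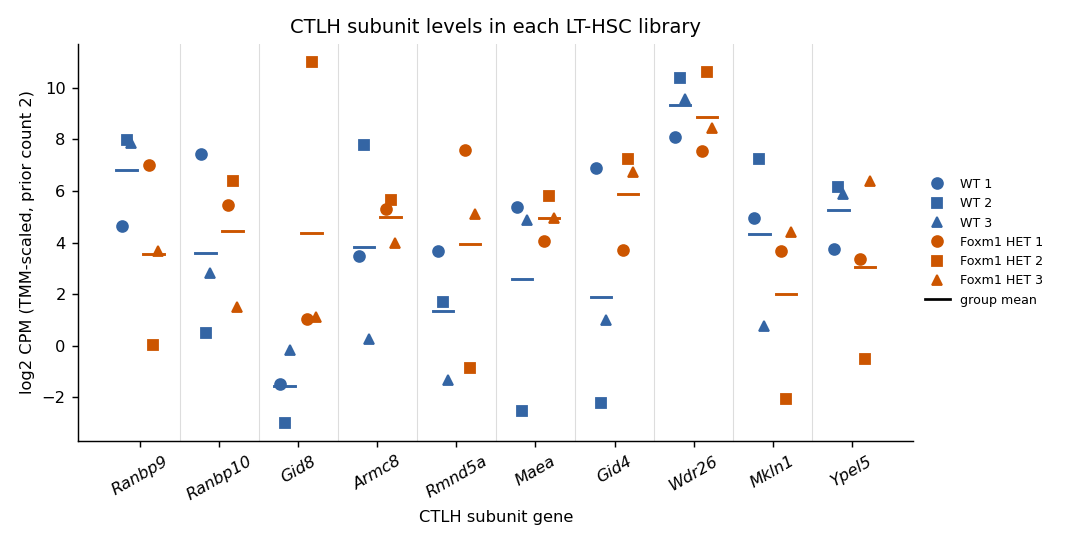
Level of each CTLH subunit gene (horizontal axis) as log2 CPM (vertical axis), with 1 point per library, colour for genotype, shape for replicate number and a bar for the mean of 3 libraries. Gid8 in Foxm1 HET replicate 2 stands at 11.01, and Wdr26 is the one subunit above 7.5 in all 6 libraries.

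Of the scaffold genes, Ranbp9 (chromosome 13, 43402673 to 43480973, minus strand, 14 exons) gave 556, 5666 and 3705 reads from the WT libraries against 4917, 6 and 529 from Foxm1 HET. Foxm1 HET replicate 1 lay among the WT libraries, and replicate 2, the library with the most Gid8, was almost empty of Ranbp9. Its mean log2 CPM was 6.83 ± 1.88 in WT and 3.56 ± 3.50 in Foxm1 HET (SD, n = 3), and the log2 fold change was -1.83 (SE 1.95, adjusted p = 0.998). Of its exon bases 6.07% overlap Nol7, so part of its reads may belong to that gene. It stayed negative when any 1 library was left out, between -4.49 and -1.19.

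Ranbp10 (chromosome 8, 105768308 to 105827350, minus strand, 14 exons), which can take the place of Ranbp9, gave 3871, 30 and 112 reads from the WT libraries against 1680, 549 and 115 from Foxm1 HET. WT alone spanned the whole range of Foxm1 HET. The log2 fold change was -0.48 (SE 2.25, adjusted p = 0.998), although the mean log2 CPM was 3.59 ± 3.54 in WT and 4.46 ± 2.60 in Foxm1 HET, so the sign depended on the scale of averaging. It turned to 3.40 without WT replicate 1, the library that held most of its WT reads.

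Ranbp9 was the higher of the paralogs per gene length in 4 libraries, and Ranbp10 in the other two. In WT replicate 2 the levels were 187 TPM for Ranbp9 and 0.570 TPM for Ranbp10. The order was turned round in WT replicate 1 (19.7 and 79.1 TPM) and in Foxm1 HET replicate 2 (0.295 and 15.6 TPM). Every library therefore held at least 15.6 TPM of 1 or the other.

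Armc8 (chromosome 9, 99478391 to 99568899, minus strand, 22 exons), the armadillo-repeat subunit, gave 246, 4945 and 18 reads from the WT libraries against 1506, 328 and 656 from Foxm1 HET. The Foxm1 HET libraries lay close together, between the extremes of WT, with a mean log2 CPM of 4.98 ± 0.889 against 3.84 ± 3.76 in WT. The fitted log2 fold change had the opposite sign to these means, -1.13 (SE 2.23, adjusted p = 0.998). Without WT replicate 2 it was 2.50.

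For the RING pair, Rmnd5a (chromosome 6, 71388634 to 71440637, minus strand, 9 exons) gave 282, 72 and 5 reads from the WT libraries against 7422, 3 and 1427 from Foxm1 HET. Foxm1 HET replicates 1 and 3 were above all WT libraries, whereas replicate 2, with 3 reads, was as low as WT replicate 3. Its log2 fold change was the highest of the 9, at 3.82 (SE 2.66, adjusted p = 0.959), and mean log2 CPM was 1.35 ± 2.53 in WT and 3.94 ± 4.36 in Foxm1 HET. Leaving out 1 library at a time kept it positive, from 1.83 to 5.55.

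Maea (chromosome 5, 33335572 to 33373294, plus strand, 9 exons), the other RING protein, gave 927, 2 and 471 reads from the WT libraries against 627, 359 and 1302 from Foxm1 HET. Apart from WT replicate 2, which was almost empty of it, the libraries of both genotypes lay between 4.05 and 5.80 log2 CPM. Mean log2 CPM was 2.57 ± 4.45 in WT and 4.94 ± 0.874 in Foxm1 HET, and the log2 fold change was 0.53 (SE 2.57, adjusted p = 0.998). It was -0.081 without WT replicate 2.

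The partners of the RING pair did not follow each other. Maea stood above Rmnd5a in TPM in 4 libraries and below it in WT replicate 2 (0.0949 and 1.18 TPM) and Foxm1 HET replicate 1 (24.2 and 99.1 TPM). Rmnd5b, the paralog of Rmnd5a, gave 72, 7895 and 1 reads from the WT libraries against 1701, 229 and 835 from Foxm1 HET. In TPM it exceeded Rmnd5a in 3 libraries, WT replicate 2 and Foxm1 HET replicates 2 and 3. WT replicate 3 had at most 0.0756 TPM of either Rmnd5 gene.

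The substrate receptor Gid4 (chromosome 11, 60417145 to 60445277, plus strand, 6 exons) gave 2599, 3 and 31 reads from the WT libraries against 498, 970 and 4496 from Foxm1 HET. WT replicate 1 reached the Foxm1 HET libraries and the other WT libraries did not. Mean log2 CPM was 1.89 ± 4.61 in WT and 5.90 ± 1.90 in Foxm1 HET, with a log2 fold change of 1.18 (SE 2.16, adjusted p = 0.998). Without WT replicate 1 it was 6.48.

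Wdr26 (chromosome 1, 181173226 to 181211978, minus strand, 14 exons) was the most abundant and the steadiest subunit. It gave 6134, 30313 and 12022 reads from the WT libraries against 7157, 10079 and 14696 from Foxm1 HET. No library was empty of it, and the genotypes overlapped through most of their range. Mean log2 CPM was 9.35 ± 1.15 in WT and 8.87 ± 1.57 in Foxm1 HET, and the log2 fold change was -0.18 (SE 1.39, adjusted p = 0.998), the smallest change and the smallest standard error of the 9. Its sign turned in 5 alternative fits, where it reached at most 0.60.

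Mkln1 (muskelin, chromosome 6, 31398828 to 31509482, plus strand, 18 exons) gave 690, 3411 and 26 reads from the WT libraries against 480, 1 and 891 from Foxm1 HET. WT replicate 3 and Foxm1 HET replicate 2 were the low libraries, 1 in each genotype. The log2 fold change was the lowest of the 9, at -2.43 (SE 2.57, adjusted p = 0.998), with mean log2 CPM of 4.33 ± 3.28 in WT and 2.0 ± 3.56 in Foxm1 HET. It was -0.57 without WT replicate 2.

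Ypel5 (chromosome 17, 72836704 to 72851195, plus strand, 3 exons) gave 299, 1597 and 954 reads from the WT libraries against 385, 4 and 3467 from Foxm1 HET. Foxm1 HET held both the highest and the lowest library. Mean log2 CPM was 5.27 ± 1.31 in WT and 3.07 ± 3.45 in Foxm1 HET, and the log2 fold change was -0.62 (SE 2.40, adjusted p = 0.998). Leaving out 1 library moved it from -3.04, without Foxm1 HET replicate 3, to -0.0051, without Foxm1 HET replicate 2.

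**Figure D3:**
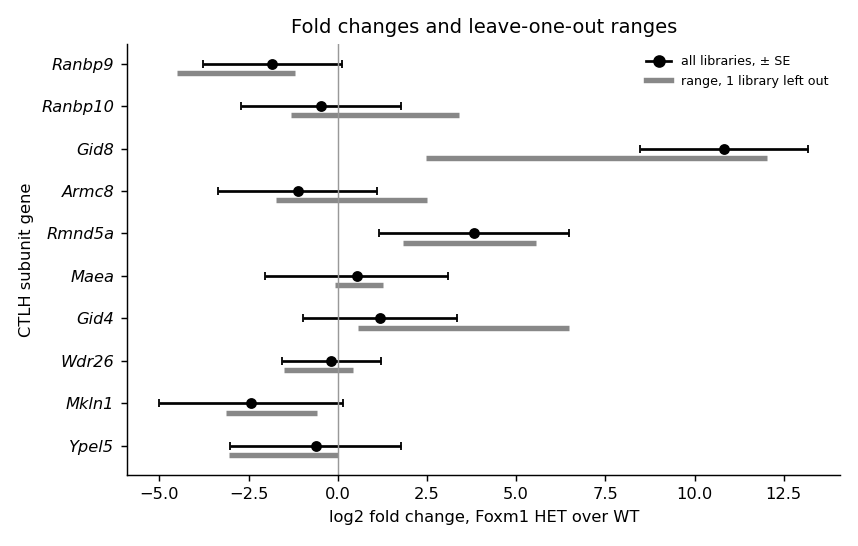
Log2 fold change of each CTLH subunit gene in Foxm1 HET over WT (horizontal axis), as points with bars for ± 1 SE, and below each point a grey bar for the range when 1 library was left out. The range of Gid8 runs from 2.46 to 12.03, and the ranges of Ranbp10, Armc8, Maea and Wdr26 cross 0. The SE bar of Gid8 is not a test, since that gene was chosen by its own reads in this comparison.

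Ordered by the median TPM over the 6 libraries, Wdr26 came first at 176, followed by Ranbp9 at 66.2, Maea at 24.8, Gid4 at 21.3, Ypel5 at 21.1, Mkln1 at 14.4, Ranbp10 at 8.80, Armc8 at 8.02, Rmnd5a at 3.07 and Gid8 at 1.97. The range over libraries of each gene overlapped that of the next gene in this order. Wdr26 was the one gene whose lowest library, at 83.6 TPM, stood above the median of every other subunit. Gid8 had both the lowest median and, in Foxm1 HET replicate 2, the highest single value, 1085 TPM.

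Detection was patchy within libraries. At least 10 reads were found for 9, 7 and 9 of the 10 subunits in WT replicates 1, 2 and 3 and for 10, 6 and 10 in Foxm1 HET, while 84.6%, 74.7% and 66.8% of the genes tested did so in WT, against 95.3%, 50.6% and 92.6% in Foxm1 HET. WT replicate 2 had 3 or fewer reads of Gid8, Gid4 and Maea, and of 20.4% of the genes tested. Foxm1 HET replicate 2 had 3 or fewer of Rmnd5a and Mkln1, and of 39.9% of the genes tested. Different subunits were thus low in different libraries, and no subunit was at 0 in any.

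The range from the lowest to the highest library was 14.00 log2 CPM for Gid8, at the 99.96 percentile of the genes tested. It was 3.05 for Wdr26, at the 6.14 percentile. Gid8 was chosen by its own reads in these libraries, so its place is a description. The other 8 subunits had ranges from 6.89 (Ypel5) to 9.45 (Gid4). The median range of the 10 genes was 8.15, against 8.10 over all genes tested, with quartiles of 6.15 and 9.42. The 10 genes split evenly, with 5 above and 5 below the median of all genes.

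**Figure D4:**
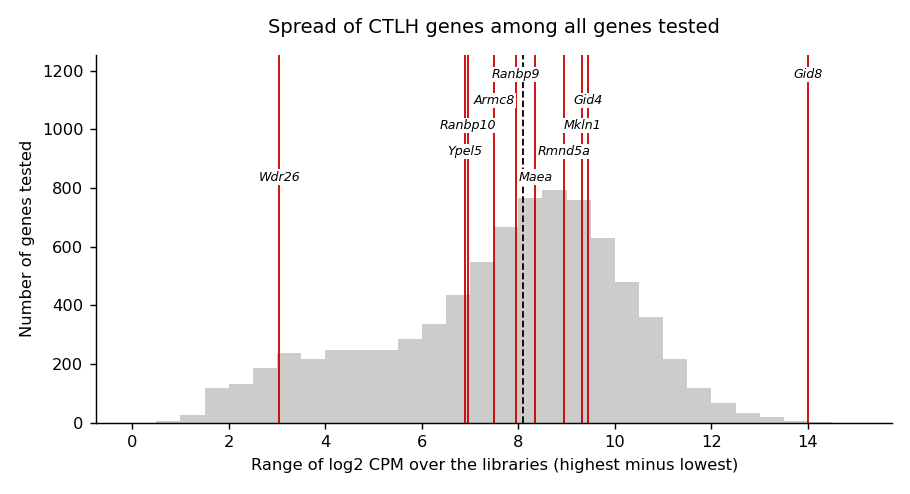
Number of genes tested (vertical axis) by the range of log2 CPM from the lowest to the highest of 6 libraries (horizontal axis), with red lines for the CTLH subunits and a dashed line for the median of all genes, 8.10. Gid8 lies at the far right at 14.00, Wdr26 at the left at 3.05, and the other subunits lie from 6.89 to 9.45.

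Summed over the 10 subunits the level was 344, 838 and 328 TPM in WT and 417, 1383 and 529 TPM in Foxm1 HET. The means were 503 ± 290 and 776 ± 528 TPM (SD, n = 3), a ratio of 1.54 that lay within the spread of the libraries. Summed as CPM the ratio was 1.06. The difference between the mean log2 sums in TPM was 0.56, and it was 0.044 to 1.0 when 1 library was left out, lowest without Foxm1 HET replicate 2. Without Gid8 the Foxm1 HET sums were 413, 298 and 525 TPM, and the means were 503 ± 291 in WT and 412 ± 114 in Foxm1 HET, a ratio of 0.819. The direction of the difference thus turned without Gid8, both in the ratio of means and in the mean log2 sums (-0.18). In the mean log2 sums it did not turn without Foxm1 HET replicate 2, where the difference was 0.044. In Foxm1 HET replicate 2 Gid8 made up 78.5% of the summed level, whereas it made up at most 0.813% in every other library. Wdr26 was the largest part in all WT libraries (27.5%, 51.8% and 48.5%) and in Foxm1 HET replicate 3 (36.5%), and Ranbp9 was the largest in Foxm1 HET replicate 1.

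**Figure D5:**
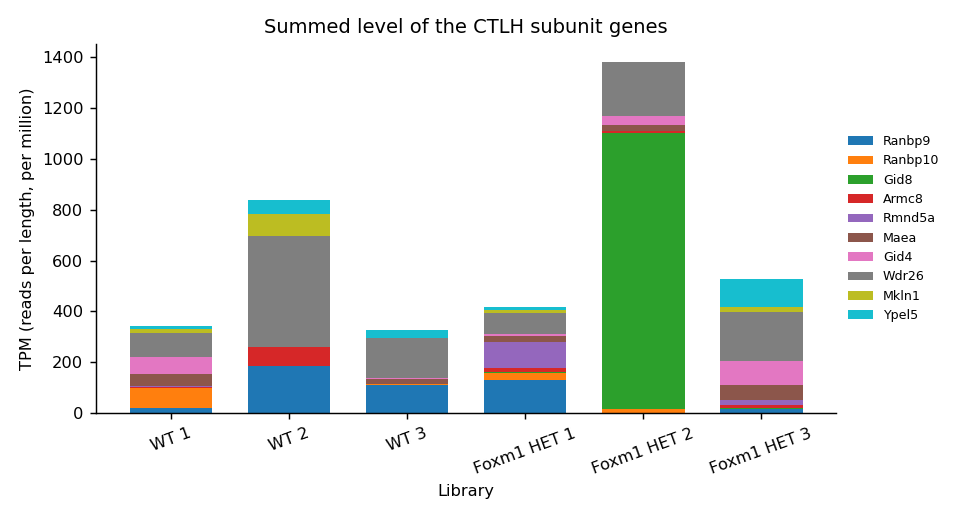
Summed TPM of the CTLH subunit genes (vertical axis, from 0) in each library (horizontal axis), with the parts of each bar coloured by gene. The bar of Foxm1 HET replicate 2 reaches 1383 TPM, of which 78.5% is Gid8, and the other bars lie between 328 and 838 TPM.

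On TMM-scaled log2 CPM Foxm1 HET replicate 2 was the highest library for 4 of the 10 subunits, Gid8, Gid4, Maea and Wdr26, and for 19.4% of all genes tested. In TPM it was the highest for Gid8 alone of these 4, since Gid4 and Maea were highest in Foxm1 HET replicate 3 (94.5 and 56.6 TPM) and Wdr26 in WT replicate 2 (434 TPM). It was also the highest library for 26 of the 27 genes that passed an adjusted p of 0.05 in the whole fit. The same library had the lowest depth and the smallest TMM factor, 0.453 against 0.757 to 1.67 elsewhere. The part of depth in these values was not tested.

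Among the 5 genes whose log2 CPM followed Gid8 most closely were Gm6402 (Pearson r = 0.993), Cep57l1 (0.991), Bnip1 (0.985) and 4932422M17Rik (0.981), over 6 libraries and out of 8194 genes compared. Cep57l1 is a homolog of a centrosomal protein, and Bnip1 is a SNARE protein of the endoplasmic reticulum. Cep57l1 gave 11, 3 and 9 reads from the WT libraries against 76, 10926 and 42 from Foxm1 HET. These genes had their highest value in Foxm1 HET replicate 2, which these correlations share as their 1 far point. In total 102 genes, or 1.24%, had an r above 0.9 with Gid8, and none of the 9 other subunits did. Their r ran from -0.857 (Mkln1), -0.854 (Ypel5) and -0.848 (Ranbp9) up to 0.566 (Gid4).

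The genes next to Gid8 on chromosome 2 did not share its pattern of reads. Dido1, whose start faces that of Gid8 from 2547 bases to its left, gave 7617, 289 and 4549 reads from the WT libraries against 6063, 937 and 9514 from Foxm1 HET, with a log2 fold change of -0.27 (adjusted p = 0.998 by edgeR). Slc17a9, the vesicular nucleotide transporter 6822 bases to the right, gave 85, 349 and 0 reads from the WT libraries against 661, 4 and 4441 from Foxm1 HET, with a log2 fold change of 2.68 (adjusted p = 0.998). In Foxm1 HET replicate 2, where Gid8 was high, both had fewer reads than in the other Foxm1 HET libraries. These reads are not scaled for depth, which was lowest in that library.

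A list of 25 further genes held the E2 enzymes, paralogs, binding partners and known or proposed targets of CTLH, and 20 of these were tested. None passed an adjusted p of 0.05 by edgeR, and 2 had an unadjusted p under 0.05, against 6.03% of all genes. DESeq2 gave a p for 17 of them, called none, and had 2 with an unadjusted p under 0.05, against 13.1% of the genes. Fitted fold changes were positive for 9 and negative for 11, with a median of -0.41 against -0.26 over all genes. Prkaa1, the catalytic alpha subunit of AMP-activated kinase, was the 1 gene of the list whose genotypes did not overlap (8.68% of all genes). It gave 2112, 7351 and 594 reads from the WT libraries against 102, 3 and 525 from Foxm1 HET, and a log2 fold change of -4.86 (SE 2.39, adjusted p = 0.786). Ube2d2a, a general E2 enzyme and the other gene with an unadjusted p under 0.05 by edgeR, gave 739, 393 and 16 reads from the WT libraries against 1060, 7284 and 1184 from Foxm1 HET, with a log2 fold change of 4.51 (SE 1.93, adjusted p = 0.626). Its exons overlap other genes over 40.4% of their length.

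The E2 enzyme Ube2h and the receptor Flt3 were chosen for naming after their values were seen. Ube2h gave 1502, 24 and 1002 reads from the WT libraries against 879, 315 and 1244 from Foxm1 HET, and like Maea it was low in WT replicate 2. Its log2 fold change was -0.38 (SE 2.41, adjusted p = 0.998). Flt3 gave 1480, 1580 and 336 reads from the WT libraries against 1540, 6 and 12648 from Foxm1 HET, and had a log2 fold change of 1.12 (SE 2.03, adjusted p = 0.998).

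Other large RING ligases were examined for comparison. The anaphase-promoting complex (APC/C), which drives the exit from mitosis, had 16 listed genes, of which 15 were tested. Cullin-RING ligases had 18 core genes, of which 16 were tested. None of these passed an adjusted p of 0.05 by edgeR, and 1 in each list had an unadjusted p under 0.05, close to the 6.03% of all genes that did. The median log2 fold change was -0.98 for APC/C and 0.34 for the cullin-RING core, with -0.33 for the 10 CTLH genes and -0.26 for all genes tested. Genotypes did not overlap for 1 APC/C gene, Anapc16, and for 0 genes of the cullin-RING core, against 8.68% of all genes. Anapc16 gave 5560, 1416 and 705 reads from the WT libraries against 15, 5 and 143 from Foxm1 HET. Its log2 fold change was -6.27 (SE 2.73, adjusted p = 0.658 by edgeR), and DESeq2, which called 2.96% of its genes, called it at -6.14 (adjusted p = 0.00545). Cul2, a cullin scaffold and the gene of the second list with an unadjusted p under 0.05, gave 233, 3426 and 11 reads from the WT libraries against 85, 13836 and 379 from Foxm1 HET, with a log2 fold change of 3.72 (SE 1.70, adjusted p = 0.731). The median range of log2 CPM over the libraries was 9.01 for APC/C and 6.33 for the cullin-RING core, on either side of the 8.15 of CTLH.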

How the data were processed

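RNA-Seq of sorted LT-HSCs gave 6 libraries (3 WT, 3 Foxm1 HET). According to the study's methods, 50-base single reads were aligned to GRCm38 (mm10) with STAR 2.7.2b. The counting tool and its strand setting are not given in the sources used here. The labels name a stranded total RNA kit with ribosomal depletion, whereas the methods name a low-input kit. The authors deposited a table of raw counts per gene and a normalized table of log2 values for 12179 genes. Gene identifiers were given symbols by the normalized table (12179), otherwise by RefSeq (13383), and 1617 stayed unnamed.

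Counts were fitted with edgeR 4.0.16 (quasi-likelihood test, TMM, filterByExpr, 8195 genes kept, Benjamini-Hochberg adjustment over all of them, call at 0.05). The SE of an edgeR fold change was its size divided by the square root of the F statistic of its test. The biological coefficient of variation was 1.66. Log2 CPM used a prior count of 2, and TPM used the deposited gene lengths. Exon overlap was computed from the deposited exon coordinates, and shared 50-base stretches from the GENCODE transcripts of GRCm38. The labels number the samples but do not say what a number shares. The edgeR p-values set the difference between genotypes against the spread between these samples, which the fit moderates over all genes. Alternatives were DESeq2 1.42.0, limma 3.58.1 (voom, and on the log2 table), other scalings and filters, the replicate number as a block, and leaving out each library. Subunit levels were also summed as CPM. Named genes were all subunits and Foxm1, listed genes of other lists that were called or, failing that, did not overlap between genotypes, the 5 genes most correlated with Gid8, and its neighbours on each side. Outside this rule, Rmnd5b, Ube2d2a, Ube2h, Flt3 and Cul2, and the genes of the closing section, were named after their values were seen. So were the single markers of cell types. Of the 5 correlated genes, 1 is not reported here. The members and lists were chosen with earlier results of these data known.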

Additional observations from a re-analysis of the deposited data

How the results depend on the processing

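Over all genes, 27 passed an adjusted p of 0.05 by edgeR (26 higher, 1 lower in Foxm1 HET). Of the same 8195 genes, 10 passed with RLE scaling, 7 with library size only and 4 with limma-voom (all lower). DESeq2 called 188 of the 6347 genes it gave a p (112 higher, 76 lower). Without a filter 36 of 13845 genes passed (35 higher, 1 lower). The count was 0 of 2516 with at least 10 counts in every library (157 genes at an unadjusted p under 0.05). It was also 0 of 12179 with limma on the normalized table (576) and 0 of 8195 with the replicate block (108). The count was 0 to 29 when 1 library was left out. It was 0 without WT replicate 1 (615 of 9435 genes at an unadjusted p under 0.05) or WT replicate 2 (549 of 9603). It was also 0 without Foxm1 HET replicate 2 (626 of 9846), and 1 without WT replicate 3. The log2 fold change of Gid8 was 10.83, but 4.75 with limma-voom, 2.58 in the normalized table, 3.82 with the replicate block, and 2.46 to 12.03 when 1 library was left out, lowest without Foxm1 HET replicate 2. For the other 9 subunits 0 calls were made in any alternative, with adjusted p of 0.369 or more, and 105 of 120 alternative fold changes kept their direction. The other 15 turned. Leaving out 1 library at a time moved Ranbp10 from -1.32 to 3.40, Wdr26 from -1.51 to 0.42, Armc8 from -1.73 to 2.50 and Maea from -0.081 to 1.26. Ranbp10 was 0.28 with RLE, 0.28 with DESeq2, 0.35 with limma-voom, 3.40 without WT replicate 1 and 0.09 without Foxm1 HET replicate 3. Wdr26 was 0.60 with RLE and with DESeq2, 0.42 without WT replicate 2, and 0.24 and 0.09 without Foxm1 HET replicate 1 and 3. Armc8 was 0.80 with limma-voom, 1.37 with the replicate block and 2.50 without WT replicate 2, Maea was -0.081 without WT replicate 2, and Ypel5 was 0.23 with library size only. RLE and library size alone moved the median of all genes by 0.13 and 0.36. For APC/C and cullin-RING genes the count went from 0 to 1 with DESeq2. The cause of these changes was not tested. Samples with the same number did not deviate together (r = 0.016, -0.025 and -0.069 for numbers 1, 2 and 3), and unlike numbers gave -0.025 to 0.055. With a biological coefficient of variation of 1.66, an r near 0 cannot decide whether the numbers mark the pairs of the methods. The main fit used no pairing. With at least 10 counts in every library only 3 of the 10 subunits, Armc8, Ranbp10 and Wdr26, could be tested. A prior count of 0.5 kept 4 of the 5 genes most like Gid8.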

Other observations

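Among the listed partners of CTLH the E2 enzyme Ube2d3 was the steadiest, at 2607, 1940 and 2115 reads from the WT libraries against 2335, 1336 and 3849 from Foxm1 HET, a range of 1.75 log2 CPM over the libraries. Of the Ypel family, Ypel3 gave 279, 3989 and 183 reads from the WT libraries against 3635, 358 and 2805 from Foxm1 HET. Ypel2 gave 864, 3 and 3 reads from the WT libraries against 5298, 3 and 13 from Foxm1 HET, so that 1 library of each genotype held nearly all of its reads. Ypel1 was mostly from WT replicate 2, at 16, 3396 and 0 reads from the WT libraries against 4, 1 and 154 from Foxm1 HET. These genes were chosen after their values were seen.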
